A study of Mus musculus with 4 samples.

Results

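The genes described here are the mouse zinc finger genes whose symbol is *Zfp* followed by a number of 3 digits that begins with 9. The rule used the symbol alone and no measured value, but it was set with earlier results of these data known. Such a symbol was held by 62 of the 50559 genes in the count table. An average of at least 10 reads over the 4 libraries was required before a ratio was formed. This held for 56 of the 62 genes and for 18586 genes in all, which are called the tested genes below. The tested member with the lowest mean count was *Zfp966*, with a mean of 20 reads. *Zfp967* and *Zfp968*, each with a mean of 9.75 reads, and *Zfp973*, with a mean of 4.75 reads, fell just short, and *Zfp957*, *Zfp981* and *Zfp992* had no read in any library.

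Most of these genes code for KRAB zinc finger proteins. In such a protein an array of C2H2 zinc fingers reads a DNA sequence, and an N-terminal KRAB box recruits the co-repressor TRIM28, through which the methyltransferase SETDB1 lays down H3K9me3 and HP1 proteins are bound. In embryonic stem cells (ESCs) the family is known for silencing endogenous retroviruses, and it grew in rodents by tandem duplication, which left runs of similar genes side by side. A search for the patterns of the finger and of the KRAB box in the GENCODE proteins gave the label its check. Of the 60 members with a protein, 56 held the KRAB pattern and 57 held at least 1 finger. The median was 11 fingers, and the longest array, 21 fingers, belonged to *Zfp974*. *Zfp935*, *Zfp957* and *Zfp972* held no match to the finger pattern in their longest GENCODE protein.

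The libraries were poly(A)+ RNA-seq of the E14 mouse ESC line, grown on gelatin with leukemia inhibitory factor. The hairpins were delivered by lentivirus, and stable lines were selected with puromycin. The control line, titled shscr_EV and called shScram+EV here, carried a scrambled hairpin and an empty vector. The other 3 lines carried a hairpin against *Ythdf2*. To it were added the empty vector in shYthdf2+EV (titled shYthdf2_EV), a wild-type *Ythdf2* construct in shYthdf2+DF2WT (titled shYthdf2_WT) and, in shYthdf2+DF2Mut (titled shYtdhf2_Mut), a construct mutated where the protein binds N6-methyladenosine. YTHDF2 is a reader of this RNA mark that brings methylated transcripts to the deadenylase machinery. The methods of the study describe replicate RNA-seq libraries, but each group had 1 library here, so no difference could be set against a replicate spread and no p-value is given. The 95% intervals below come from read pairs and cover counting error only.

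The libraries held 31533129 to 35742335 counted reads. *Ythdf2* itself had 2806 reads in the scrambled line, 662 after knockdown, 7661 with the wild-type and 6925 with the mutant construct, so it was lower with the hairpin and above the scrambled line with either construct. Mitochondrial genes took 8.44% of the reads in shScram+EV and 6.14 to 6.75% in the other 3 libraries. All 8 ESC markers were detected, with a summed level of 2515 to 3217 FPKM, computed here as counts scaled by TMM to library size and divided by exon length.

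The members lay on 13 chromosomes. With neighbours joined where their starts were at most 2 Mb apart, they formed 25 runs, and 5 runs held 3 or more members and 40 of the 62 genes. In mm39 the run on chromosome 4 spanned chr4:145237329-147933583 and held 14 members, from *Zfp990* to *Zfp933*. The run on chromosome 17 spanned chr17:21786082-23086285 and held 10, from *Zfp948* to *Zfp945*. The run on chromosome 2, chr2:175214229-177721858, held 9, from *Zfp968* to *Zfp931*. Smaller runs stood on chromosome 7, chr7:42228821-42841533, with *Zfp977*, *Zfp976*, *Zfp975* and *Zfp936*, and on chromosome 8, chr8:69661671-70202612, with *Zfp930*, *Zfp964* and *Zfp963*. The duplication also touched the counts. In 11 members at least 50% of the 100-base words of the transcript occurred in another gene, and reads that map to several places were not counted. These were *Zfp965*, *Zfp966*, *Zfp967*, *Zfp968* and *Zfp973* on chromosome 2, *Zfp978*, *Zfp987*, *Zfp991* and *Zfp993* on chromosome 4, and *Zfp935* and *Zfp960* elsewhere. Exons of 16 members overlapped those of another gene, by at least 50% in *Zfp980*, *Zfp981*, *Zfp987* and *Zfp992*, which lie over the vomeronasal receptor pseudogenes *Vmn2r-ps15*, *Vmn2r-ps16* and *Vmn2r-ps17*. Reads were counted without regard to strand, so the levels of such pairs are uncertain. *Zfp981* and *Zfp992* overlapped over their whole exon length, so their counts of 0 cannot show whether they were transcribed.

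The upstream sequences carried the mark of the duplications too. RefSeq promoters (GRCm38.p6) matched 55 of the 62 members, and the 250 bases before the start were searched on both strands. CCAAT was present in 42 of the 55 members (76.4%) and in 37.5% of the promoters of 27025 genes. GGGCGGG was present in 16 members (29.1%) against 25.7% of all promoters, and CACGTG in 7 members (12.7%) against 6.86%. The longest run of bases found in at least 2 members of both the chromosome 4 and the chromosome 17 runs had 13 bases, and it spans CCAAT on the other strand together with GGGCGGG. It occurred in 8 members, *Zfp979*, *Zfp980*, *Zfp982*, *Zfp984*, *Zfp985* and *Zfp988* on chromosome 4 and *Zfp947* and *Zfp994* on chromosome 17, and in 11 of the 27025 promoters in all (0.0407%). The other 3 were *Gm13212*, *Rex2* and *Zfp600*, which are not members. The 3 stretches of 150 bases that follow are shown because *Zfp947* and *Zfp994* gave the largest construct differences of the well-counted members and *Zfp979* carries the same word on another chromosome. Carriers of the word did not move alike. Their log2 ratios of the mutant against the wild-type construct ran from 0.23 in *Zfp982* and 0.39 in *Zfp985* to 1.35 in *Zfp947*. Capitals mark the 13 bases, all 3 genes lie on the minus strand, and the stretches are chr17:22165978-22166127, chr17:22225615-22225764 and chr4:147642509-147642658.
Zfp947: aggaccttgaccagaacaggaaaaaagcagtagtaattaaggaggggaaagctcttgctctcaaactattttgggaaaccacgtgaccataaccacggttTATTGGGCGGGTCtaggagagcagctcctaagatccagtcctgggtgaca
Zfp994: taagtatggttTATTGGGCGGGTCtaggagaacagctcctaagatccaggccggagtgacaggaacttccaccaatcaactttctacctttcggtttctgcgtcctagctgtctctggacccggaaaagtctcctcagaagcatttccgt
Zfp979: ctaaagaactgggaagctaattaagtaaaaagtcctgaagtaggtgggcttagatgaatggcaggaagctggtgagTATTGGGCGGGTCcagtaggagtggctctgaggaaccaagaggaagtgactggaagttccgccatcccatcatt
In *Zfp947* and *Zfp994* the shared stretch was longer and reached 24 bases. On chromosome 2 the likeness was closer still, since a run of 41 bases stood in 8 of the 9 members (*Zfp931*, *Zfp965*, *Zfp966*, *Zfp967*, *Zfp968*, *Zfp970*, *Zfp971* and *Zfp973*) and in 12 of 27025 promoters (0.0444%). The 4 other genes with it were *Gm14288*, *Gm14295*, *Gm14325* and *Gm14440*. It is shown whole because it joins members that did not move alike between the libraries.
Chromosome 2 run: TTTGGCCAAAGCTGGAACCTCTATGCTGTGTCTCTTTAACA
These matches describe the letters of the windows and say nothing of which factor binds there.

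The members ranged widely in level. By FPKM, *Zfp990* was the highest in shScram+EV at 97.3 FPKM, followed by *Zfp978* at 84.7, *Zfp979* at 60.2, *Zfp961* at 40.4 and *Zfp985* at 37.7. All but *Zfp961* belong to the chromosome 4 run, and *Zfp961* is a KRAB gene with 11 fingers that stands alone on chromosome 8. The median tested member was at 3.86 FPKM in the scrambled line, 4.20 after knockdown, 3.47 with the wild-type and 4.59 with the mutant construct. The 62 members together held 0.179%, 0.203%, 0.152% and 0.230% of the reads of the same libraries. The chromosome 4 run supplied most of these reads, with 33223 of 57950 in shScram+EV. For the members as a sum, shYthdf2+DF2WT was thus the lowest library and shYthdf2+DF2Mut the highest.

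**Figure D1:**
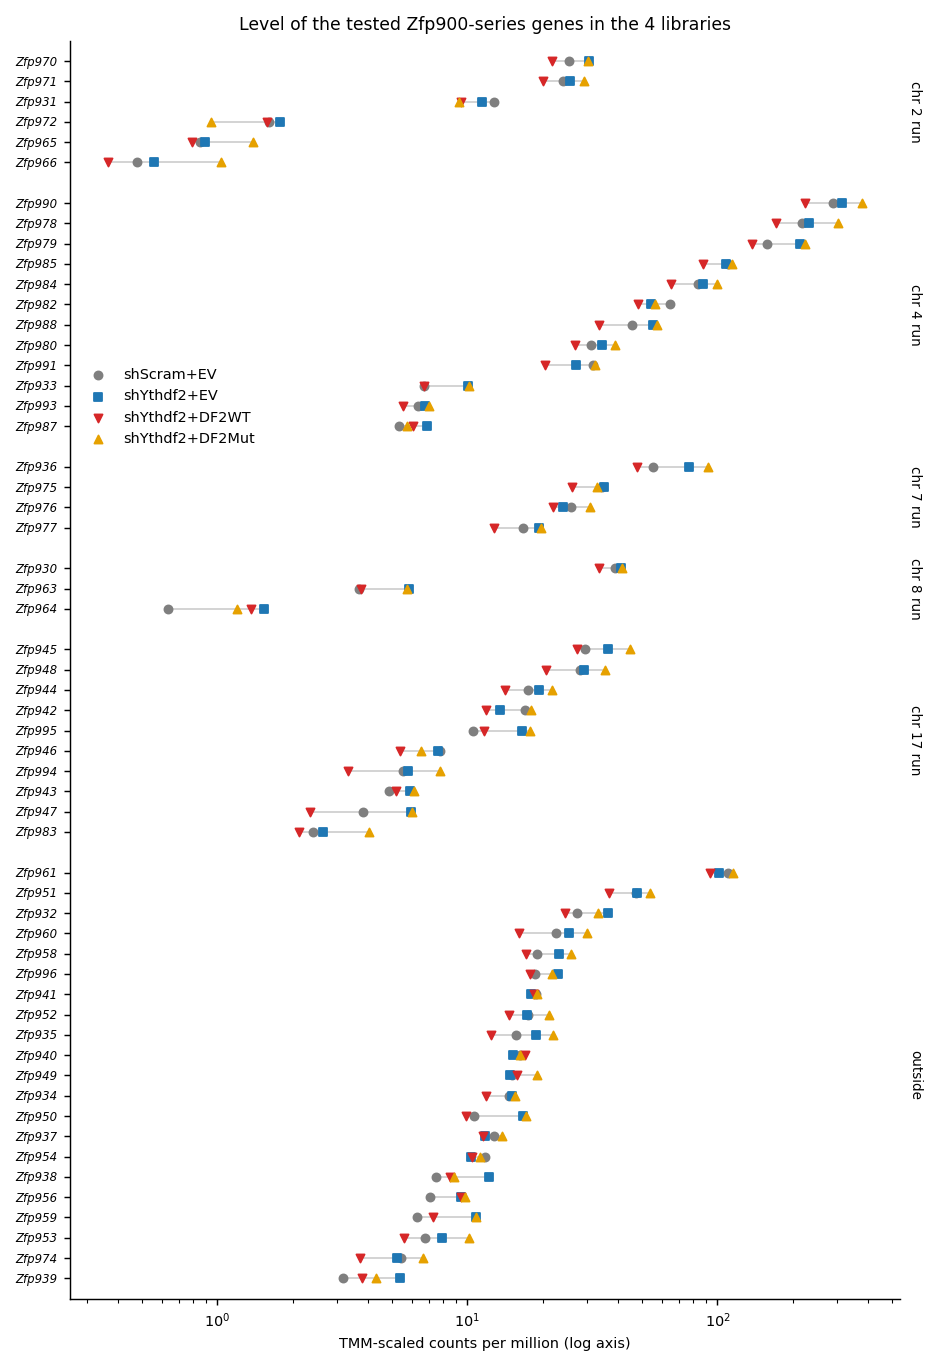
Level of each of the 56 tested members (rows, grouped by chromosomal run, with single genes and small runs as outside) in TMM-scaled CPM on a log axis, 1 point per library. The points of shYthdf2+DF2WT are the leftmost for 40 of the 56 members and those of shYthdf2+DF2Mut the rightmost for 41.

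The order of the libraries was similar from gene to gene. The level was lowest in shYthdf2+DF2WT for 40 of the 56 members (71.4%), where 25.2% of all tested genes were lowest in this library. It was highest in shYthdf2+DF2Mut for 41 members, against 25.7% of all tested genes. Transcripts of these genes are poor in G and C, and the same shares were therefore taken over genes of like GC content, the 500 tested genes nearest to each member. Among those, 54.2% were lowest in shYthdf2+DF2WT and 41.7% were highest in shYthdf2+DF2Mut. The 318 other numbered *Zfp* genes that were tested were lowest in shYthdf2+DF2WT in 43.1% of cases.

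The first comparison asks how the members stood after *Ythdf2* knockdown, as shYthdf2+EV against shScram+EV. Ratios are log2 of TMM-scaled counts with 0.5 added. The median of the 56 members was 0.14, and 41 of them were above 0, where 49.8% of all tested genes were above 0 and their median was -0.00. Among genes of like GC content 58.7% were above 0. The 318 other numbered *Zfp* genes had a median of 0.16, which was no lower than that of the members. A level at least 2-fold higher was seen for 1 member, against 7.10% of all tested genes, and a 2-fold lower level for 0, against 5.70%. The interval lay above 0 for 21 members and below 0 for 4, against 23.2% and 22.9% of all tested genes.

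The 1 member past 2-fold was *Zfp964*, a 9-finger gene of the chromosome 8 run, and it rested on few reads. It had 20 reads in the scrambled line, 55 after knockdown, 45 with the wild-type and 38 with the mutant construct. Its knockdown ratio was 1.25, with a 95% interval from 0.19 to 2.48. Among members with a mean of at least 50 reads, *Zfp959*, which stands alone on chromosome 17, had the highest knockdown ratio, with 199 reads in the scrambled line and 388 after knockdown (0.78, interval 0.42 to 1.14). *Zfp939* on chromosome 7 went from 100 to 194 reads (0.77, interval 0.26 to 1.29). *Zfp938* on chromosome 10 went from 236 to 440 reads (0.71, interval 0.38 to 1.05). *Zfp963*, a neighbour of *Zfp964*, went from 116 to 209 reads (0.66, interval 0.19 to 1.15). These 4 genes were low to moderate in level, between 0.39 and 3.24 FPKM in shScram+EV, and none of them belonged to the runs of chromosomes 2, 4 and 17. Genes of the chromosome 17 run stood close below them. *Zfp947* was at 0.63 (interval 0.17 to 1.12) and *Zfp995*, named after its values were seen, at 0.64 (interval 0.37 to 0.93).

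The abundant members changed less with the knockdown. *Zfp990* had 9186 reads in the scrambled line and 11302 after knockdown, a ratio of 0.11, and *Zfp978* had 6901 and 8347, a ratio of 0.09. *Zfp979* differed from these neighbours, with 4974 and 7703 reads and a ratio of 0.44 (interval 0.37 to 0.52). The lowest ratios were those of *Zfp942* on chromosome 17, with 535 and 487 reads (-0.32, interval -0.58 to -0.07), and *Zfp982* on chromosome 4, with 2042 and 1952 reads (-0.25, interval -0.38 to -0.12). *Zfp991* followed at -0.22 and *Zfp954* at -0.18. Members of 1 run thus stood on both sides of 0.

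The second comparison asks how the members stood when wild-type YTHDF2 was put back, as shYthdf2+DF2WT against shYthdf2+EV. It shares the library shYthdf2+EV with the knockdown comparison, so an unusual value in that library would enter both. The median of the members was -0.42. The ratio was below 0 for 51 of the 56, where 49.6% of all tested genes were below 0 with a median of 0.00. Among genes of like GC content 75.9% were below 0 and 9.22% were at least 2-fold lower. A 2-fold lower level was seen for 1 member, *Zfp947*, against 5.58% of all tested genes, and a 2-fold higher level for 0, against 5.15%. The shift was therefore broad and moderate. The interval lay below 0 for 38 members, against 21.5% of all tested genes, and above 0 for 0, against 21.1%. The other numbered *Zfp* genes had a median of -0.17.

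*Zfp947*, a KRAB gene with 9 fingers in the chromosome 17 run, had 121 reads in the scrambled line, 214 after knockdown, 77 with the wild-type and 191 with the mutant construct. The wild-type construct library was the lowest of the 4, at 0.394 of the level in shYthdf2+EV (-1.34, interval -1.92 to -0.80). Its neighbour *Zfp994*, with 17 fingers, had 174, 207, 110 and 247 reads in the same order. It too was lowest with the wild-type construct (-0.78, interval -1.28 to -0.30), and it was near its scrambled level in shYthdf2+EV (0.06, interval -0.36 to 0.49). *Zfp950* on chromosome 19 had 335, 599, 324 and 547 reads, with a wild-type construct ratio of -0.76 (interval -1.04 to -0.48). *Zfp988* on chromosome 4 had 1442, 1980, 1109 and 1818 reads, with a ratio of -0.71 (interval -0.86 to -0.56). *Zfp936*, the highest gene of the chromosome 7 run, had 1743, 2777, 1573 and 2920 reads, with a ratio of -0.69 (interval -0.82 to -0.57). Each of these 3 genes had its fewest reads with the wild-type construct and more in the other 3 libraries.

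Among the most abundant members the intervals were narrow. *Zfp979* had 4974, 7703, 4542 and 7092 reads, with a wild-type construct ratio of -0.63 (interval -0.71 to -0.56). *Zfp990* had 9186, 11302, 7400 and 12086 reads, with a ratio of -0.48 (interval -0.54 to -0.42). *Zfp978* had 6901, 8347, 5644 and 9608 reads, with a ratio of -0.44 (interval -0.51 to -0.37). *Zfp961*, outside the runs, had 3474, 3639, 3064 and 3673 reads and a ratio of only -0.12 (interval -0.22 to -0.02). In all 4 of these genes the wild-type construct library lay below the scrambled library as well, at -0.37 for *Zfp990*, -0.35 for *Zfp978*, -0.24 for *Zfp961* and -0.19 for *Zfp979*, each with an interval below 0.

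Members at the upper end stood close to 0 rather than above it. *Zfp940* on chromosome 7 had the highest ratio, 0.16 (interval -0.09 to 0.40), with 514, 547, 559 and 514 reads. *Zfp949* on chromosome 9 was at 0.09, *Zfp941* on chromosome 7 at 0.04 and *Zfp954* on chromosome 7 at 0.01, or at -0.0016 with DESeq2 size factors. All of these had an interval that included 0, all lay outside the 5 runs, and their GC contents, 43.6 to 50.1%, were above the members' median of 38.6%.

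The third comparison puts the mutant construct in the place of the wild-type one, as shYthdf2+DF2Mut against shYthdf2+EV, and so shares shYthdf2+EV with both comparisons above. The median of the members was 0.10 and 44 of the 56 were above 0, against 51.2% of all tested genes and 59.3% of genes of like GC content. No member was 2-fold higher or lower (0 and 0), against 2.65% and 3.38% of all tested genes. The interval lay above 0 for 20 members and below 0 for 1, against 14.7% and 12.9%. *Zfp983* on chromosome 17 was the highest of the members with at least 50 reads on average, with 76, 95, 70 and 128 reads in the 4 libraries (0.60, interval 0.04 to 1.18). *Zfp994* was at 0.43, *Zfp942* at 0.40 and *Zfp978* at 0.38, the last with an interval from 0.32 to 0.44. The 1 member whose interval lay below 0 was *Zfp938*, with 440 reads in shYthdf2+EV and 281 in shYthdf2+DF2Mut (-0.47, interval -0.79 to -0.16). *Zfp938* had 280 reads with the wild-type construct, so for this gene both constructs gave a level below shYthdf2+EV. Among members with at least 50 reads on average, *Zfp939* (-0.32), *Zfp931* (-0.31) and *Zfp987* (-0.27) were the next lowest, with intervals that reached 0 or above.

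**Figure D2:**
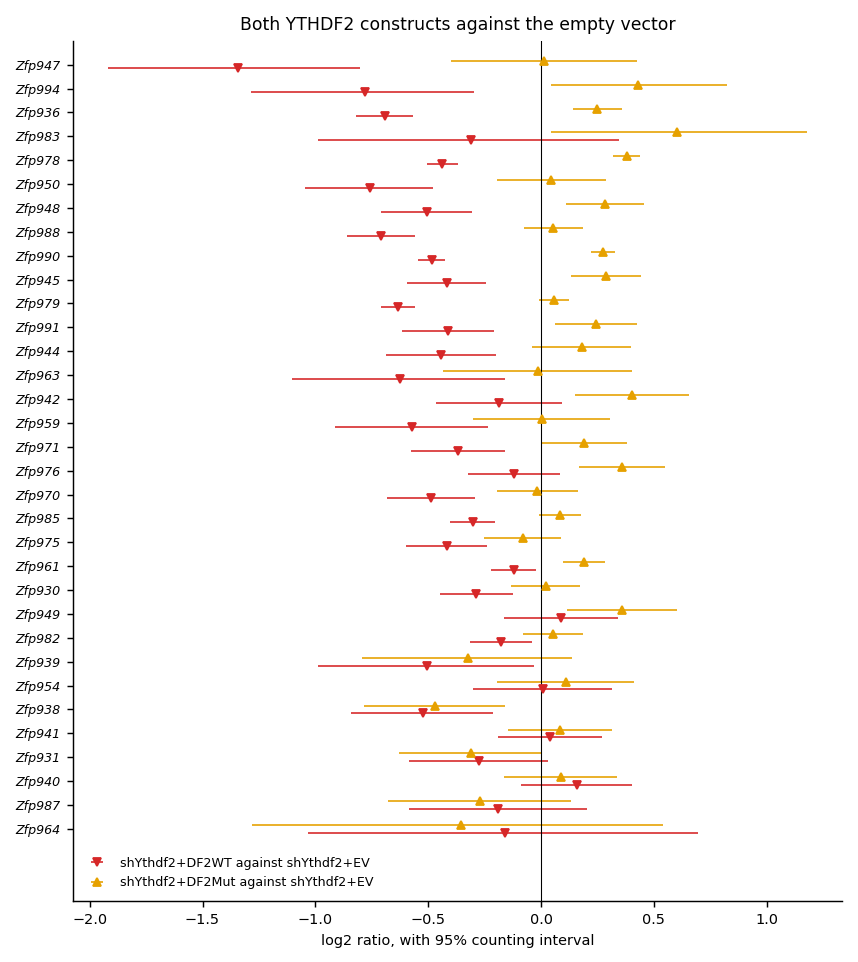
The log2 ratio of the wild-type construct library (red) and the mutant construct library (yellow) against the shared empty-vector library shYthdf2+EV for the 33 members named by rule, with 95% counting intervals and sorted by the ratio between the constructs. The red and yellow intervals stand apart for genes at the top such as *Zfp947* (-1.34 and 0.01) and coincide at the bottom, as in *Zfp940* (0.16 and 0.09).

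The fourth comparison sets both constructs directly against each other, as shYthdf2+DF2Mut against shYthdf2+DF2WT, 2 libraries in which *Ythdf2* itself differed by a log2 ratio of -0.10. It uses neither empty-vector library. The median of the members was 0.55, and 51 of the 56 were above 0, against 49.0% of all tested genes and a median of -0.01. Among genes of like GC content 75.5% were above 0. A 2-fold higher level with the mutant was seen for 3 members, *Zfp966*, *Zfp947* and *Zfp994*, against 5.40% of all tested genes, and a 2-fold lower level for 0, against 6.21%. The share of members past 2-fold was thus near the background, while the share with an interval above 0 was not: 41 members, against 23.9% of all tested genes, with 0 below 0, against 23.6%. The other numbered *Zfp* genes had a median of 0.27 and an interval above 0 in 49.4% of cases.

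*Zfp947* was 2.56-fold higher with the mutant than with the wild-type construct (1.35, interval 0.81 to 1.94) and *Zfp994* was 2.32-fold higher (1.21, interval 0.75 to 1.70). *Zfp966* gave the largest ratio, 1.47, from 12 and 33 reads, and its interval from 0.09 to 3.15 shows how little these reads fix. It shares 78.7% of its 100-base words with another gene, and it was named after its values were seen. *Zfp936* was at 0.94 (interval 0.82 to 1.07), *Zfp983* at 0.92, *Zfp978* at 0.82 and *Zfp990* at 0.76 (interval 0.70 to 0.82). Of the abundant genes of chromosome 4, *Zfp979*, *Zfp990* and *Zfp978* thus differed between the constructs by 1.62 to 1.76-fold and *Zfp985* by 1.31-fold. At the other end, *Zfp987* was at -0.08, *Zfp940* at -0.07, *Zfp931* at -0.04 and *Zfp941* at 0.04, each with an interval that included 0. The lowest ratio of all tested members was that of *Zfp972*, at -0.73, from 52 and 30 reads, with an interval from -1.77 to 0.23. *Zfp972*, also named after its values were seen, is a short transcript without a finger pattern.

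By run, the 10 tested genes on chromosome 17 had a median of 0.66 between the constructs, and all 10 were above 0, from 0.24 to 1.35. *Zfp948* (0.79), *Zfp945* (0.71) and *Zfp944* (0.62) are its genes with the most reads. The 12 on chromosome 4 had a median of 0.61, and 11 were above 0. The 4 on chromosome 7 had a median of 0.55, and all were above 0, with *Zfp976* at 0.48 and *Zfp975* at 0.34 beside *Zfp936*. On chromosome 2, 4 of 6 tested genes were above 0, with a median of 0.51. The range from -0.73 to 1.47 rested on *Zfp972* and *Zfp966*, which had few reads. Its well-counted genes were *Zfp971* at 0.56, *Zfp970* at 0.47 and *Zfp931* at -0.04, all of which carry the 41-base run upstream. On chromosome 8, *Zfp963* was at 0.61, *Zfp930* at 0.31 and *Zfp964* at -0.19. Members in runs of 3 or more had a median of 0.61 and the 21 tested members outside them 0.38.

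The wild-type construct comparison gave medians of -0.51 on chromosome 7, -0.47 on chromosome 17, -0.42 on chromosome 4, -0.32 on chromosome 2 and -0.29 on chromosome 8. All 35 tested members in these 5 runs were below 0 in it, and all 5 members above 0 lay outside. With the knockdown the medians were 0.66 on chromosome 8, where there were 3 genes, and 0.10 to 0.14 in the other 4 runs. The 2 comparisons share shYthdf2+EV. Neighbouring genes arose from one another and share sequence, so the genes of a run are not independent measurements.

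**Figure D3:**
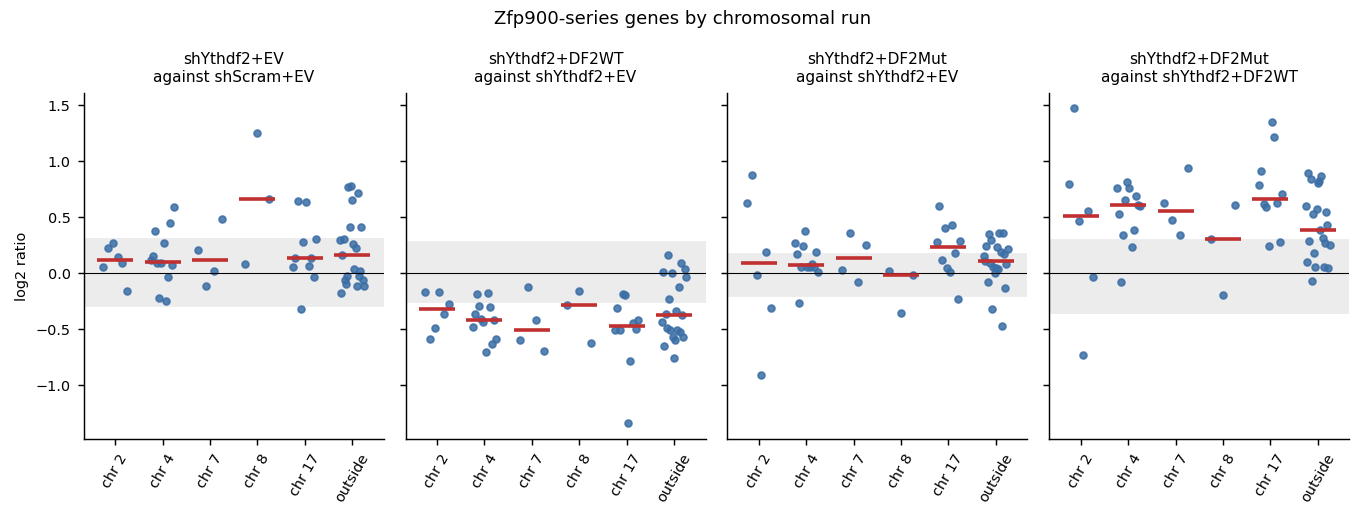
The log2 ratio of each tested member in the 4 comparisons, by chromosomal run, with the median of each run as a red bar and the middle 50% of all tested genes as a grey band. Every point of the 5 runs lies below 0 in the wild-type construct panel, and the medians of the 5 runs lie at 0.31 to 0.66 in the panel of the mutant against the wild-type construct.

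The members differ from most genes in base composition. Their transcripts had a median GC content of 38.6%, against 49.9% for the 16980 tested genes with a value (91.4% of those tested) and 45.3% for the other numbered *Zfp* genes. GGAC, a core of the N6-methyladenosine consensus, occurred 1.67 times per kilobase in the median member and 4.04 times in the median tested gene. Their longest exon, which in this family usually holds the whole finger array, had a median of 2750 bases against 1662.

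GC content was tied to the ratios over all genes. Across the 16980 genes, which are not independent replicates, Spearman's rho with GC content was -0.06 for the knockdown, 0.34 for the wild-type construct, -0.16 for the mutant construct and -0.39 for the mutant against the wild-type construct. The part that GC content or library preparation has in the members' ratios was not tested beyond the following matching. Relative to genes of like GC content, the median of the 55 members with a value was 0.04 for the knockdown, -0.16 for the wild-type construct, 0.09 for the mutant construct and 0.28 for the mutant against the wild-type construct. The reference genes themselves had medians of 0.09, -0.26, 0.05 and 0.31 in the same order. Against the members' own medians of -0.42 with the wild-type construct and 0.55 between the constructs, a large part of either shift was therefore found in genes of like composition.

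What was left was uneven between members. Between the constructs, 43 of the 55 members lay above their like-GC genes and 12 below. *Zfp947* remained 1.04 above them and *Zfp994* 0.90, and *Zfp936* and *Zfp983* stood 0.64 above. *Zfp978* was 0.52, *Zfp990* 0.43 and *Zfp979* 0.37 above. *Zfp985* (0.07), *Zfp961* (0.08) and *Zfp930* (-0.01) lay at the level of genes of like GC content. *Zfp987* (-0.40), *Zfp931* (-0.36) and *Zfp940* (-0.26) lay below it. By run, the relative medians were 0.36 on chromosome 17, 0.31 on chromosome 4, 0.26 on chromosome 2, 0.25 on chromosome 7 and -0.01 on chromosome 8. Without the 21 members that overlap or share much sequence with another gene, the median relative to like-GC genes was 0.16 between the constructs and -0.02 for the knockdown, the latter on the other side of 0. The relative median for the mutant construct was smaller without them as well.

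**Figure D4:**
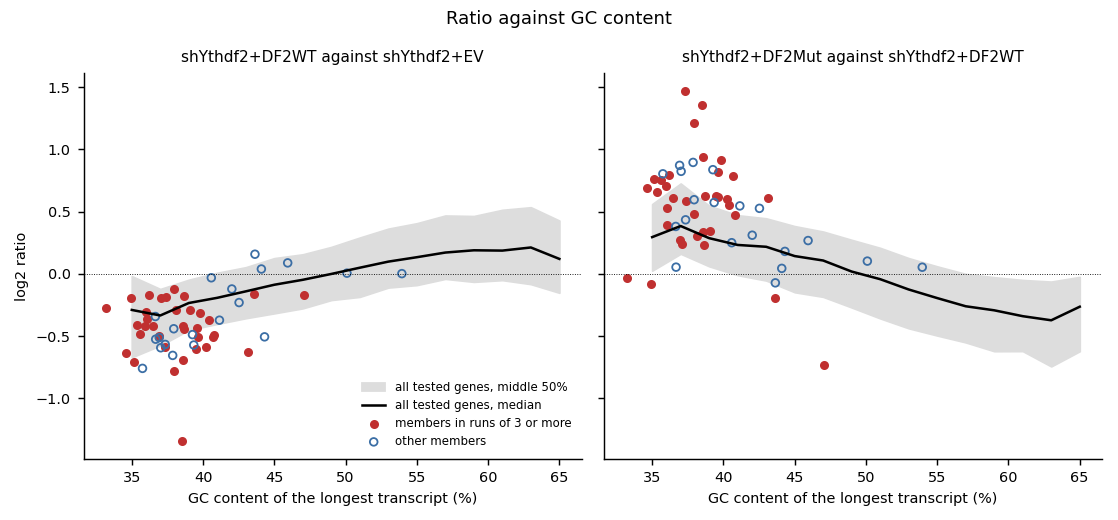
The log2 ratio against the GC content of the longest transcript (%) for the 55 members with a value (points) and for all tested genes in bins of 2 percentage points (black line, median, and grey band, middle 50%, for bins of at least 20 genes). In the left panel most members lie below the line at 34 to 42% GC and in the right panel most lie above it.

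Against the scrambled line, comparisons added after the data were seen, the members had a median of -0.21 in shYthdf2+DF2WT and of 0.30 in shYthdf2+DF2Mut. In shYthdf2+DF2WT 44 of 56 were below 0, against 49.3% of all tested genes and 72.6% of genes of like GC content. In shYthdf2+DF2Mut 49 of 56 were above 0, against 48.6% of all tested genes and 64.1% of genes of like GC content. The medians relative to like-GC genes were -0.07 and 0.18. The wild-type construct library was thus below the scrambled library for most members and the mutant construct library above it, on 2 ratios that share the scrambled library. *Zfp947* had 77 reads in shYthdf2+DF2WT and 121 in shScram+EV, and *Zfp990* had 7400 and 9186.

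The partners through which KRAB proteins act lay nearer to 0, but their median GC content was 49.1%, against 38.6% for the members. All tested genes of 48 to 50% GC had medians of -0.00 for the wild-type construct and 0.02 between the constructs. The part of GC content in the ratios of the partners was not tested. Of 16 co-repressor genes, all tested, 0 passed 2-fold in any of the 4 comparisons, and their medians lay between -0.04 and 0.08. *Trim28*, the KRAB-bound scaffold, had 44347, 50539, 46532 and 47244 reads in the 4 libraries, with ratios of 0.00, 0.01, 0.08 and 0.07. *Setdb1*, the H3K9 methyltransferase, was at 0.23 for the knockdown, -0.25 for the wild-type construct and 0.42 between the constructs, and *Atf7ip*, its partner, at 0.28, -0.35 and 0.60. *Smarcad1*, a chromatin remodeller that binds TRIM28, was at 0.34, -0.60 and 0.67. In these 3 comparisons 7 of the 16 genes had the signs of the members' medians throughout and 5 had the opposite signs throughout. The split also followed base composition. GC content ran from 38.7% (*Cbx3*) to 49.95% (*Hdac1*) in the 7 genes and from 51.9% (*Dnmt3a*) to 56.1% (*Chd3*) in the 5. *Dnmt3a*, a DNA methyltransferase, was among the latter at -0.32, 0.14 and -0.31, and *Chd3*, a remodeller of the NuRD complex, at -0.12, 0.27 and -0.29.

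Of 8 further zinc finger genes with a known role in ESCs, 7 were tested, and their medians were 0.26 for the knockdown, -0.39 for the wild-type construct, 0.04 for the mutant construct and 0.32 between the constructs. *Zfp809*, which silences murine leukemia virus-like elements, had 1326, 1855, 1129 and 1724 reads, with 0.30, -0.59 and 0.66 for the knockdown, the wild-type construct and the constructs against each other. *Zfp57*, which guards imprinted methylation, had 17668, 23494, 17691 and 21378 reads, with 0.23, -0.28 and 0.32. All 7 were above 0 for the knockdown and between the constructs and below 0 for the wild-type construct, and *Zfp600* was listed at 0 in all libraries.

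Markers of other cell states moved between the same libraries. The 7 genes of the 2-cell-like state, a rare state of ESC cultures, summed to 43.1 FPKM in the scrambled line, 156 after knockdown, 51.3 with the wild-type and 133 with the mutant construct, and all 7 were past 2-fold higher after knockdown and past 2-fold lower in shYthdf2+DF2WT than in shYthdf2+EV. With the mutant construct, 2 of the 7 were past 2-fold lower than in shYthdf2+EV and 0 higher. *Zscan4d* had 1463, 6266, 1792 and 4814 reads. The 5 trophectoderm markers summed to 33.3, 16.9, 30.0 and 15.6 FPKM, with 3 of them under 1 FPKM everywhere, and the 5 primitive endoderm markers to 2.64, 3.77, 1.87 and 3.74. The sums were 5.72 to 8.30 FPKM for 3 mesoderm markers, with *T* at 0 throughout, 1.79 to 2.40 for 3 neural markers and 4.96 to 8.56 for 4 fibroblast or feeder markers, with *Col3a1* at 0 in shScram+EV and shYthdf2+DF2WT. The part of these states in the members' ratios was not tested, and in such bulk libraries a change in the share of a cell state and a change of RNA per cell cannot be told apart.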

How the data were processed

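RNA-seq libraries of 4 E14 ESC lines, 1 per group by title, were analysed. The authors deposited whole-number read counts per gene. Per the file headers, they were made with featureCounts 2.0.3 from paired reads, counted as single reads and without strand, over exons of the mm39 RefSeq annotation, and multi-mapping and multi-overlapping reads were left out. The processing notes name fastp 0.19.4, HISAT2 2.2.1, DESeq2 1.40.2 and mm10. The libraries were dUTP-stranded, but because counting ignored strand, antisense partners cannot be told apart in these counts.

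Counts were scaled by TMM (edgeR 4.0.16) on genes whose counts averaged 10 or more, and log2 ratios were formed with a prior count of 0.5. Intervals (Clopper-Pearson, 95%) used reads divided by 2. Reads are not independent molecules, so intervals cover counting error only. The scripts were tested on simulated data. GC content came from the longest GENCODE M21 transcript. Genes of like GC content were the 500 nearest tested non-members. No p-value was computed.

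Named members were, among those averaging at least 50 reads, the 4 highest and 4 lowest of each comparison and those past 2-fold, plus the 5 highest by FPKM in shScram+EV and up to 3 with the most reads in each run of 3 or more. This gave 33 genes, and others are marked where named. Members, gene lists and comparisons were chosen with earlier results of these data known. Alternatives were DESeq2 1.42.0 size factors, total counts and upper-quartile scaling, a prior count of 5, count minimums of 1 and 50, 200 genes of like GC content, matching on mean count or exon length, a 1.5-fold limit, an interval condition, and leaving out the largest run or the overlapping and sequence-sharing members.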

Additional observations from a re-analysis of the deposited data

How the results depend on the processing

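Scaling, prior count and like-GC matching on 200 genes, on mean count or on exon length changed the direction of none of the medians, and the 528 alternative values of the 33 named members moved by less than their counting intervals. In 4 of these 528 the sign differed, each with an interval that included 0: *Zfp954* for the wild-type construct (0.0061, and -0.0016 with DESeq2 size factors), *Zfp949* (-0.023 and 0.021) and *Zfp985* (-0.030 and 0.013) for the knockdown with total counts, and *Zfp959* for the mutant construct (0.0029, and -0.0044 with upper-quartile scaling). Exon length matching was chosen after seeing the data. Of the 684 alternative values in all, 1 median also changed sign, and 12 medians or counts moved beyond the counting error of a median or by over 1.5 times in a count. Without the 21 overlapping or sequence-sharing members, the knockdown median relative to like-GC genes was -0.018 instead of 0.04, the mutant construct one was 0.025 instead of 0.09, the median between the constructs was 0.47 instead of 0.55 (0.16 instead of 0.28 relative to like-GC genes), and 1 instead of 3 members was 2-fold higher. By construction, fewer genes enter, and whether miscounting of shared sequence moved the rest was not tested. With a minimum mean count of 1, 2 members were 2-fold higher with the knockdown, and with a minimum of 50, 0 were. At 1.5-fold, 9 members were higher with the knockdown, 12 were lower with the wild-type construct, 3 were higher and 1 lower with the mutant construct, and 26 were higher and 1 lower between the constructs.

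No paired analysis was possible because each group had 1 library and no replicate number. Each comparison is of 2 libraries, with no biological spread to set a ratio against. Low depth limits members such as *Zfp964* for the knockdown and *Zfp966* between the constructs, whose intervals span more than 2 log2 units.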
